A study of Mus musculus with 24 samples.

Results

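The expression of 10 macrophage genes was followed in the inguinal fat of mice, which lies under the skin, across the 6 groups of the study. The genes were Adgre1, Cd68, Mrc1, Csf1r, Cd163, Timd4, Trem2, Itgax, Marco and Csf1, taken by symbol from the 16118 genes of the deposited table, and all 10 were present. Macrophages are phagocytes that clear dead cells, lipid and debris and that sense and shape the tissue around them. In fat, some are long-lived resident cells and others derive from circulating monocytes, and most depend on colony stimulating factor 1 signalling through its receptor. Resident adipose macrophages are commonly recognised by scavenger and clearance receptors, whereas macrophages that take up lipid or gather in inflamed fat are known for Trem2 and Itgax.

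Young male and female mice were compared at postnatal day 21 (p21) and at postnatal day 28 (p28), after they had either been separated from the mother at p21 (standard weaning, SW) or stayed with her (delayed weaning, DW). No strain, genetic change or drug is named in the labels. Each group held 4 animals, and each library came from 1 animal, so that p21 males (animals 37, 38, 53 and 54), SW males (78, 84, 85 and 124), DW males (79, 80, 86 and 87), p21 females (30, 36, 55 and 56), SW females (73, 74, 75 and 81) and DW females (76, 77, 82 and 83) made up 24 libraries. Values within a group are given below in the order of these animal numbers. They are in the authors' normalised reads, and a library held 57600711 to 302145813 reads in the listed genes. Whole tissue was sequenced, so fewer cells of a type and less RNA per cell cannot be told apart.

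Several libraries stood apart. Animal 53 had the fewest reads and 14054 detected genes, against 15497 to 16066 in the other 23 libraries. The share of reads from mitochondrial genes was 13.2% in DW female 82, 13.7% in DW female 83 and 13.2% in p21 male 38, and 16.6% to 25.5% in the other 21 libraries. In males it also differed by group, at 23.7% to 25.5% after SW against 13.2% to 20.9% at p21 and 17.7% to 23.3% after DW. The female groups overlapped. The part of this share in the results was not tested. The adipocyte list (8 genes, among them Adipoq, which encodes adiponectin, and Plin1, which encodes a lipid droplet coat protein) summed to 14912 to 25548 across the libraries. Adipocyte markers taken as a sum were thus abundant in all of them, and the sum does not show the level of each gene. The lymph node stroma list (6 genes, among them Ccl21a and Cxcl13) summed to 591 to 2483 across the libraries, and the B cell list to 298 to 884. Whether reads of the members came from fat or from lymph node tissue was not tested.

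Promoter sequence of 4 members is shown because these genes differed in how they moved: Marco and Mrc1 diverged between animals of a group, Cd68 rose and Itgax passed no test. Each sequence holds the 250 bases before the RefSeq start of the gene in build GRCm38.p6, written along the gene's strand. Capitals mark GAGGAA or its reverse complement TTCCTC, a core that the myeloid transcription factor PU.1 is known to bind. The stretches are chr1:120505025-120505274 (minus strand) for Marco, chr2:14229164-14229413 (plus strand) for Mrc1, chr7:128129300-128129549 (plus strand) for Itgax and chr11:69666171-69666420 (minus strand) for Cd68.
Marco: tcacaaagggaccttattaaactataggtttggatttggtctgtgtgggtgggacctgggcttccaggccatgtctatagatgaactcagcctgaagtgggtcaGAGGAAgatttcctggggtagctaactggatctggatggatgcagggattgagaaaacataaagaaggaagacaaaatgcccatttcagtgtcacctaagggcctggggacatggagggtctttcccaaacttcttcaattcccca
Mrc1: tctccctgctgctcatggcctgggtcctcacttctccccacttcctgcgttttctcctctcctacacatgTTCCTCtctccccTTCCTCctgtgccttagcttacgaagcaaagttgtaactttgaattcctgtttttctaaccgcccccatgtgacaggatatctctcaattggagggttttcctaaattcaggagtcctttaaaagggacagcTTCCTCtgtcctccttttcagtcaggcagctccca
Itgax: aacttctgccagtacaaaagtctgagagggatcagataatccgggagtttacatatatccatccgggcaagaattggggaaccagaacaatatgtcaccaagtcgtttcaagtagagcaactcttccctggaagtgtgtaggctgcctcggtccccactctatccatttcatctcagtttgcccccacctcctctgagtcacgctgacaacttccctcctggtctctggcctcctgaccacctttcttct
Cd68: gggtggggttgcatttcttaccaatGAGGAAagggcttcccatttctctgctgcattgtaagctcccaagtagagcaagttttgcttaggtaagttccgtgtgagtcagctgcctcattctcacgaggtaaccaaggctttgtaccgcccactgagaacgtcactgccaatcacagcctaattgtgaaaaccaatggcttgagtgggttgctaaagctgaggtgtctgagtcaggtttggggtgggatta
Promoters of 8 of the 10 members were matched in the RefSeq table. GAGGAA, searched on both strands, was in 4 of these 8 (Marco, Mrc1, Cd68 and Trem2) and in 23.3% of all 32851 promoters of the same length. Mrc1 held 3 copies, 180, 167 and 35 bases before the start. The Marco copy lay 146 bases and the Cd68 copy 225 bases before it. TGANTCA, a core bound by AP-1 factors, was in 3 of the 8 (Itgax, Cd68 and Trem2) and in 6.75% of all promoters. CACGTG, the core of the E-box read by TFEB and related lysosomal regulators, was in 0 of the 8 and in 6.02% of all promoters. These are letter matches and were not tested as binding sites.

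The first question was how macrophage genes changed between p21 and p28. Adgre1, Cd68, Csf1r, Timd4 and Trem2 were called higher at p28 in both sexes and after either weaning. Cd163 and Marco were called higher in males, Mrc1 in DW animals, and Itgax and Csf1 in no comparison. By limma with Benjamini-Hochberg adjustment over 16005 genes (called at an adjusted p under 0.05), 7 of 10 members were called in SW males, 5 in SW females, 8 in DW males and 6 in DW females, each time all higher. The share of all genes called, in either direction, was 11.9% in SW males, 11.6% in SW females, 15.0% in DW males and 12.1% in DW females. The median log2 change of the members was 0.97 in SW males, 1.08 in SW females, 1.17 in DW males and 0.97 in DW females, against 0.01, 0.01, 0.02 and 0.00 over all genes. SW and DW animals of a sex were compared with the same p21 animals, so these pairs of comparisons share their controls. Every p21 animal had a number from 30 to 56 and every p28 animal a number from 73 to 124. Age therefore cannot be told apart from anything else that goes with these runs of numbers, for which the labels name no batch. How many members were called depended on which p21 animals were in the model: without animals 30 to 38 there were 7 in SW males and 3 in SW females, and without animals 53 to 56 there were 3 and 6. Calls over all genes also moved. In SW males and SW females they were 1901 and 1860 with all animals, 2144 and 1087 without animals 30 to 38, and 996 and 1476 without animals 53 to 56.

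**Figure D1:**
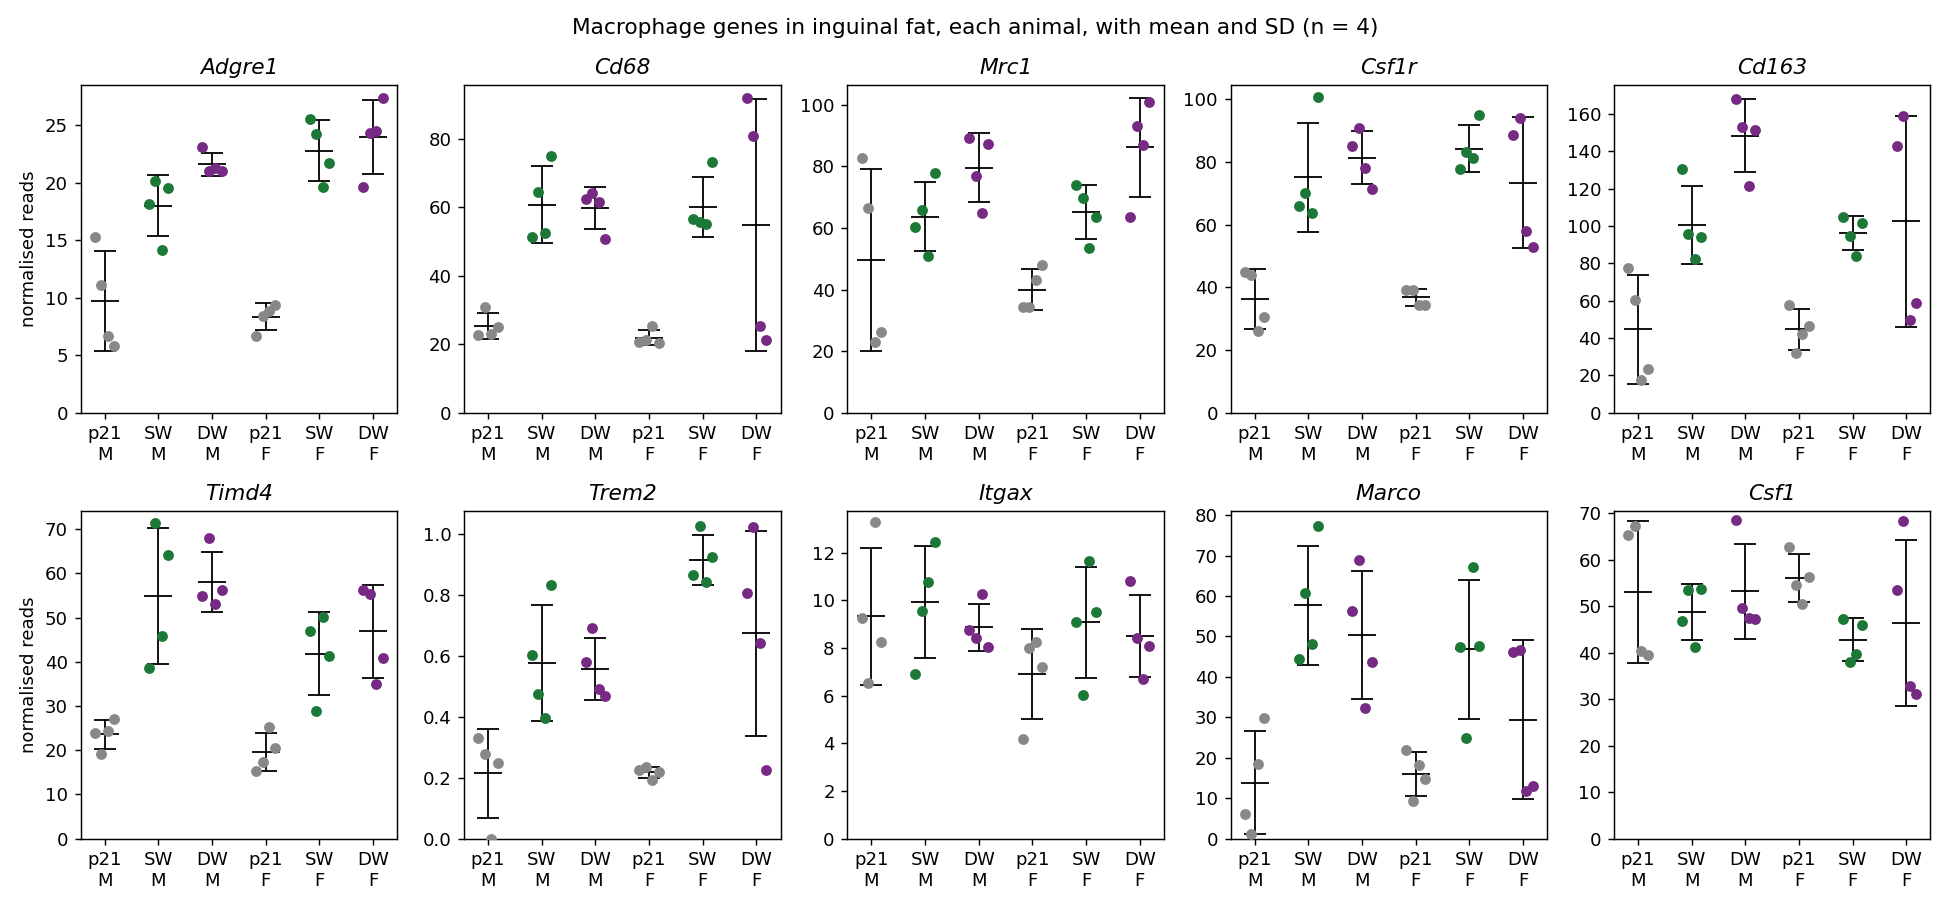
Normalised reads of each of the 10 genes (vertical axis, linear, from 0) in each animal of the 6 groups (horizontal axis, M for males and F for females), with the group mean and SD in black (n = 4). Adgre1, Csf1r and Timd4 are higher at p28 than at p21 in both sexes, Itgax overlaps between the groups, and the DW females split for Cd68, Cd163 and Marco.

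Adgre1 encodes F4/80, the surface receptor most used to mark mouse macrophages. It was 15.2, 11.1, 6.69 and 5.82 in p21 males, 18.2, 20.1, 14.2 and 19.5 in SW males and 23.1, 21.0, 21.2 and 21.0 in DW males. In females it was 6.70, 8.43, 8.87 and 9.41 at p21, 25.5, 24.2, 19.6 and 21.7 after SW and 19.6, 24.3, 24.5 and 27.4 after DW. All p28 females lay above all p21 females, and among males SW animal 85 lay below p21 animal 37. Here and below, overlap between groups only describes the animals, since the share of all genes without overlap is not given. Adgre1 rose by 0.90 (SE 0.19) on the log2 scale in SW males, with a limma adjusted p of 0.00457, and by 1.35 in SW females (limma adjusted p 6.63e-05). It also rose by 1.16 in DW males (limma adjusted p 0.000708) and by 1.41 in DW females (limma adjusted p 0.000134). All changes compare log2(value + 1), and a low gene's change is understated on that scale. The call in SW males was lost when the other 4 groups were left out of the model (adjusted p 0.0707), without p21 male 53, SW male 84 and p21 female 36 (change 0.72, adjusted p 0.0603) and without p21 animals 53 to 56 (change 0.43, adjusted p 0.131).

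Csf1r encodes the receptor for colony stimulating factor 1, on which most tissue macrophages depend. It was 45.0, 44.0, 26.0 and 30.5 in p21 males, 65.8, 70.1, 63.5 and 101 in SW males and 85.0, 90.8, 78.0 and 71.3 in DW males. It was 39.3, 39.0, 34.4 and 34.3 in p21 females, 77.6, 83.1, 81.3 and 94.8 in SW females and 88.5, 93.9, 57.9 and 52.9 in DW females. Every p28 animal exceeded every p21 animal of its sex. Csf1r rose by 1.04 in SW males (SE 0.18, limma adjusted p 0.00109), by 1.17 in SW females (limma adjusted p 0.000166), by 1.17 in DW males (limma adjusted p 0.000451) and by 0.94 in DW females (limma adjusted p 0.00227). It was called in each of the 4 comparisons under all 17 or 18 alternative settings, with a highest adjusted p of 0.0478.

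Cd68 encodes macrosialin, a glycoprotein of macrophage lysosomes. It was 22.6, 30.8, 23.0 and 25.0 in p21 males, 51.2, 64.5, 52.4 and 75.0 in SW males and 62.4, 64.1, 61.7 and 50.8 in DW males. It was 20.7, 21.4, 25.3 and 20.4 in p21 females and 56.5, 55.6, 55.1 and 73.1 in SW females, without overlap. In DW females it was 92.0 and 80.8 in animals 76 and 77 but 25.2 and 21.2 in animals 82 and 83, which is the p21 level. Cd68 rose by 1.22 in SW males (SE 0.31, limma adjusted p 0.0131), by 1.41 in SW females (limma adjusted p 0.0037), by 1.21 in DW males (limma adjusted p 0.0121) and by 1.00 in DW females (limma adjusted p 0.0358). The last call was the least stable. It was lost without any 1 of the p21 females 30, 36, 55 and 56 (adjusted p 0.0787, 0.0746, 0.0503 and 0.0771) or of DW females 76 (change 0.66, adjusted p 0.0961) and 77 (change 0.73, adjusted p 0.101), and without DW females 82 and 83 the change was 1.93 (adjusted p 9.55e-07).

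Timd4 encodes a phosphatidylserine receptor that binds dying cells and marks long-lived resident macrophages. It was 24.0, 19.0, 24.3 and 27.0 in p21 males, 38.6, 71.4, 45.7 and 64.1 in SW males and 54.9, 68.04, 53.1 and 56.2 in DW males. It was 15.4, 17.3, 25.3 and 20.6 in p21 females, 47.0, 28.9, 50.0 and 41.2 in SW females and 56.3, 55.3, 35.0 and 41.0 in DW females. No p28 animal reached down to the p21 values of its sex. Timd4 rose by 1.16 in SW males (SE 0.20, limma adjusted p 0.000898), 1.05 in SW females (limma adjusted p 0.00116), 1.27 in DW males (limma adjusted p 0.000471) and 1.21 in DW females (limma adjusted p 0.000581). It kept its call under all alternatives except 1, SW females without p21 animals 30 to 38 (change 0.82, adjusted p 0.0527).

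Cd163 encodes the scavenger receptor for haemoglobin bound to haptoglobin. It was 77.5, 60.5, 17.4 and 23.2 in p21 males, so that animals 37 and 38 stood well above animals 53 and 54. It was 130.3, 95.6, 82.2 and 94.0 in SW males and 168, 153, 122 and 151 in DW males, and in females 57.8, 31.9, 42.1 and 46.5 at p21 and 105, 94.5, 84.1 and 102 after SW. DW females 76 and 77 had 143 and 159, and DW females 82 and 83 had 49.8 and 58.5. In males all p28 values exceeded all p21 values. Cd163 rose by 1.385 in SW males (SE 0.37, limma adjusted p 0.019) and by 1.95 in DW males (limma adjusted p 0.00197). The log2 change was 1.12 in SW females (limma adjusted p 0.0561) and 1.03 in DW females (limma adjusted p 0.0739), neither of which passed the threshold. The SW male call was lost without p21 male 53 (change 1.03, adjusted p 0.0776), p21 male 54 (1.17, adjusted p 0.0621) or SW male 78 (1.25, adjusted p 0.0566). In DW females Cd163 was called by edgeR (adjusted p 0.0402) and DESeq2 (adjusted p 0.00753), without animal 82 (change 1.31, adjusted p 0.0365) and without animals 82 and 83 (change 1.77, adjusted p 0.00726). In SW females it was called by DESeq2 (adjusted p 0.018) and by limma on the p21 and SW females alone (adjusted p 0.00138).

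Mrc1 encodes the mannose receptor CD206, common on resident and alternatively activated macrophages. It was 82.6, 66.3, 23.1 and 26.3 in p21 males, which spanned the whole range of SW males at 60.4, 65.7, 50.9 and 77.7 and most of that of DW males at 89.2, 76.8, 64.7 and 87.3. It was 34.4, 34.4, 43.1 and 47.8 in p21 females, 73.8, 69.7, 53.6 and 63.4 in SW females and 63.5, 93.2, 86.9 and 101 in DW females, with all p28 females above all p21 females. Mrc1 rose in DW males by 0.86 (SE 0.28, limma adjusted p 0.0407) and in DW females by 1.08 (limma adjusted p 0.0141). In SW animals the change was 0.54 in males (limma adjusted p 0.217) and 0.70 in females (limma adjusted p 0.119, and 0.00728 in a model of the p21 and SW females alone). The DW male call was lost in 6 of the 8 fits that each left out 1 animal: without p21 male 53 (change 0.58, adjusted p 0.177) or 54 (0.64, adjusted p 0.135), and without DW male 79 (adjusted p 0.0969), 80 (adjusted p 0.0691), 86 (adjusted p 0.0503) or 87 (adjusted p 0.107). Neither edgeR (adjusted p 0.12) nor DESeq2 (adjusted p 0.0688) called it. In DW females the call was lost without animal 83 (change 1.00, adjusted p 0.0507) and without animals 82 and 83 (change 0.94, adjusted p 0.104), and in SW males Mrc1 was called without p21 male 37 (change 0.85, adjusted p 0.034).

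Marco encodes a scavenger receptor for bacteria and particles. It had the largest SE of the 10 genes on the log2 scale, and in males the largest changes from p21. It was 6.20, 1.13, 18.4 and 29.8 in p21 males, 44.4, 60.7, 48.2 and 77.3 in SW males and 56.4, 68.9, 32.3 and 43.8 in DW males, without overlap. It was 22.0, 9.24, 18.3 and 14.6 in p21 females, 47.5, 24.9, 67.1 and 47.8 in SW females and 46.2, 46.7, 11.8 and 13.1 in DW females. SW females lay above all p21 females, and DW females 82 and 83 lay among them. Marco rose by 2.55 in SW males (SE 0.58, limma adjusted p 0.00699) and by 2.34 in DW males (limma adjusted p 0.0108). The change was 1.47 in SW females (limma adjusted p 0.115) and 0.63 in DW females (limma adjusted p 0.523, and 1.54 with an adjusted p of 0.163 without animals 82 and 83). A model of the p21 and SW females alone called the SW female change (adjusted p 0.00942). The rises in males were 1.23 (adjusted p 0.102) and 1.02 (adjusted p 0.149) without p21 animals 30 to 38, which include the p21 males with the least Marco, 37 and 38.

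Trem2, a lipid-sensing receptor of macrophages that take up fat, was the lowest of the 10 genes in normalised reads, with 20 to 135 reads in 23 of the libraries. It had 0 reads in p21 male 53, which allows up to 0.0462 normalised reads in that library by counting error alone, and 0.330, 0.277 and 0.249 in p21 males 37, 38 and 54. It was 0.602, 0.476, 0.397 and 0.832 in SW males, 0.578, 0.690, 0.491 and 0.468 in DW males, 0.224, 0.235, 0.193 and 0.220 in p21 females, 0.864, 1.02, 0.843 and 0.923 in SW females and 0.806, 1.02, 0.640 and 0.227 in DW females. Only DW female 83 among p28 animals fell within the p21 range of its sex. On the log2(value + 1) scale Trem2 rose by 0.65 in SW females (SE 0.12, limma adjusted p 0.000556), 0.38 in SW males (limma adjusted p 0.0361), 0.37 in DW males (limma adjusted p 0.0374) and 0.43 in DW females (limma adjusted p 0.0169). With a pseudocount of 0.1 in place of 1 the same changes were 1.67, 1.26, 1.25 and 1.15, since the scale compresses values this low. The SW male call was lost without p21 male 53 (change 0.29, adjusted p 0.125), p21 male 54 (adjusted p 0.05), SW male 78 (adjusted p 0.0733) or SW male 124 (adjusted p 0.116). The DW male call was lost without p21 male 53 (change 0.27, adjusted p 0.141), p21 male 54 (adjusted p 0.0534) or any 1 DW male (adjusted p 0.0582 to 0.0977), and edgeR called neither (adjusted p 0.098 in SW and 0.0999 in DW males) nor DW females (adjusted p 0.0529).

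Itgax encodes CD11c, an integrin of dendritic cells and of macrophages in inflamed fat. It was 4.17 to 13.3 over all 24 animals. Group means were 9.34 ± 2.87 in p21 males, 9.93 ± 2.33 in SW males, 8.87 ± 0.979 in DW males, 6.91 ± 1.88 in p21 females, 9.08 ± 2.32 in SW females and 8.50 ± 1.71 in DW females (SD, n = 4 each). The groups overlapped throughout. Its log2 changes from p21 were 0.09 in SW males, 0.35 in SW females, -0.03 in DW males and 0.28 in DW females, with limma adjusted p values of 0.828, 0.343, 0.939 and 0.425. The 95% interval ran from -0.36 to 0.55 in SW males and from -0.10 to 0.81 in SW females.

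Csf1, which encodes the ligand of the Csf1r receptor and is made largely by cells other than macrophages, did not follow its receptor. It was 65.3, 67.2, 40.4 and 39.5 in p21 males, 46.7, 53.5, 41.2 and 53.7 in SW males and 68.6, 49.5, 47.4 and 47.4 in DW males. It was 62.8, 54.6, 50.5 and 56.3 in p21 females, 47.3, 38.1, 39.7 and 46.1 in SW females and 53.5, 68.4, 32.8 and 31.1 in DW females. SW females all lay below p21 females, with a log2 change of -0.38 that did not pass the threshold (95% interval -0.82 to 0.05, limma adjusted p 0.276). A model of the p21 and SW females alone called it lower (adjusted p 0.0285). The change was -0.08 in SW males (limma adjusted p 0.841), 0.03 in DW males (limma adjusted p 0.94) and -0.34 in DW females (limma adjusted p 0.309, and 0.11 without animals 82 and 83).

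**Figure D2:**
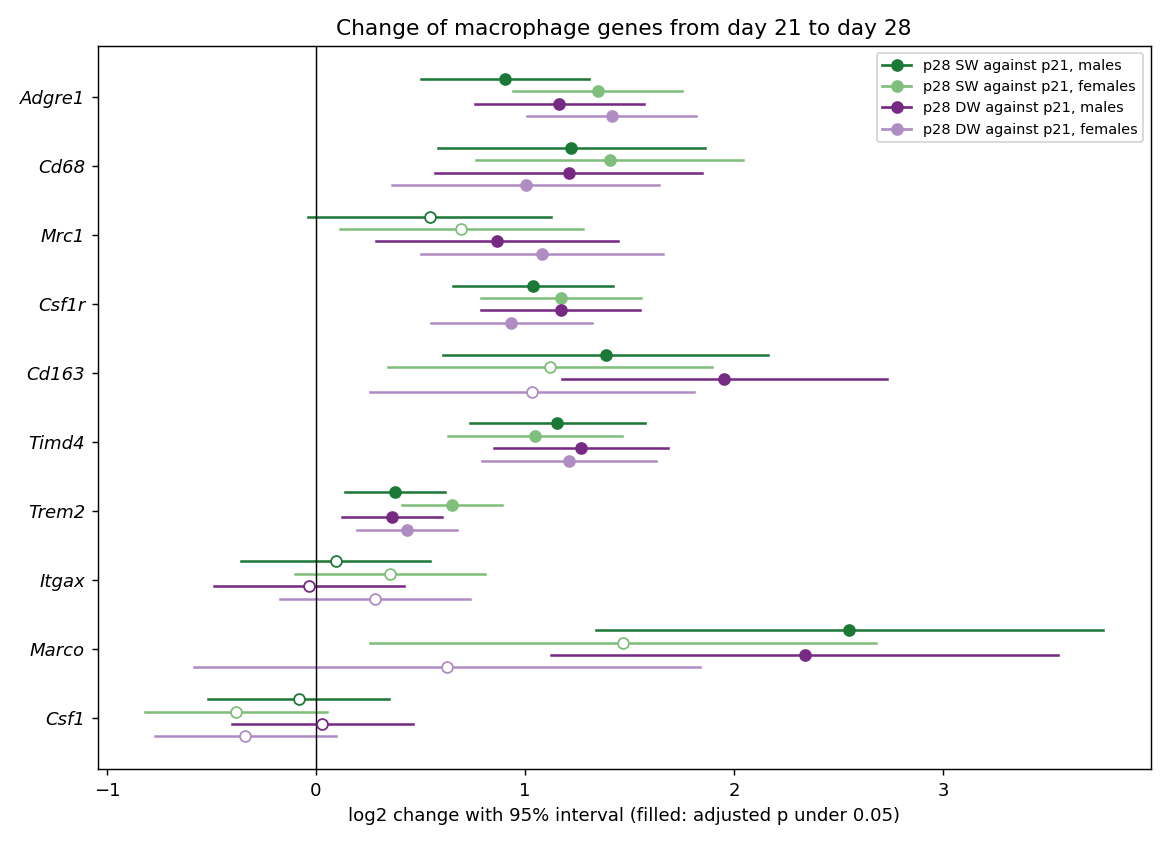
Log2 change of each gene from p21 to p28 (horizontal axis, with its 95% interval) for SW and DW animals of each sex; filled points passed the limma threshold. Csf1r and Timd4 lie between 0.94 and 1.27 in all 4 comparisons, the Marco intervals are the widest, and those of Itgax and Csf1 span 0.

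A pattern within groups, noticed after the values were seen, ran through these genes. The 4 p21 males divided by animal number. Animals 37 and 38 had more Mrc1, Cd163, Adgre1, Csf1r, Csf1 and Trem2 than animals 53 and 54, and less Marco and Timd4. The Timd4 values lay close together, at 24.0 and 19.0 against 24.3 and 27.0. For Marco the order was thus opposite to that of Mrc1. Beside these values, the progenitor list (6 genes, among them Pdgfra and Dpp4, which mark adipocyte precursors) summed to 1246 and 1042 in animals 37 and 38 and to 525 and 547 in animals 53 and 54. The mitochondrial share was 16.6% and 13.2% against 19.8% and 20.9%, and the erythroid list (5 genes, among them the haemoglobin gene Hbb-bt) summed to 591 and 433 against 1675 and 1033. The B cell list summed to 408 and 436 against 884 and 598, and the T cell list to 394 and 331 against 581 and 426. Lymph node stroma sums overlapped, at 1595 and 1051 against 2483 and 1451. The part of these values in the result was not tested. The labels name no batch for these animal numbers. Leaving out p21 animals 53 to 56 moved the Mrc1 change in SW males from 0.54 to -0.23 and the Cd163 change from 1.385 to 0.53 (adjusted p 0.414), and leaving out p21 animals 30 to 38 gave 1.32 for Mrc1 (adjusted p 0.000549). With p21 animals 53 to 56 left out, members called numbered 3 in SW males (Csf1r, Marco and Timd4) and 4 in DW males (Adgre1, Csf1r, Marco and Timd4). Calls over all genes fell as well, from 1901 to 996 in SW males and from 2395 to 679 in DW males.

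The 4 DW females divided in another way. Animals 82 and 83 had less Cd68, Cd163, Marco, Csf1r, Csf1, Timd4 and Trem2 than animals 76 and 77, and also less Itgax (6.68 and 8.09 against 10.8 and 8.44). Their Mrc1 (86.9 and 101 against 63.5 and 93.2) and Adgre1 (24.5 and 27.4 against 19.6 and 24.3) were not lower. The lower values were thus uneven across macrophage genes, and Cd68 and Marco, both at about the p21 level in these animals, stood beside Adgre1 at the p28 level. The mitochondrial share was 13.2% and 13.7% in animals 82 and 83 against 23.6% and 19.2%. The mammary epithelium list (6 keratin and adhesion genes) summed to 61.6 and 65.1 against 167 and 142, the endothelium list to 1033 and 924 against 1484 and 1533, and the erythroid list to 174 and 156 against 432 and 339. Progenitor sums overlapped, at 1013 and 1102 against 1023 and 1172. The part of these differences in the result was not tested.

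**Figure D3:**
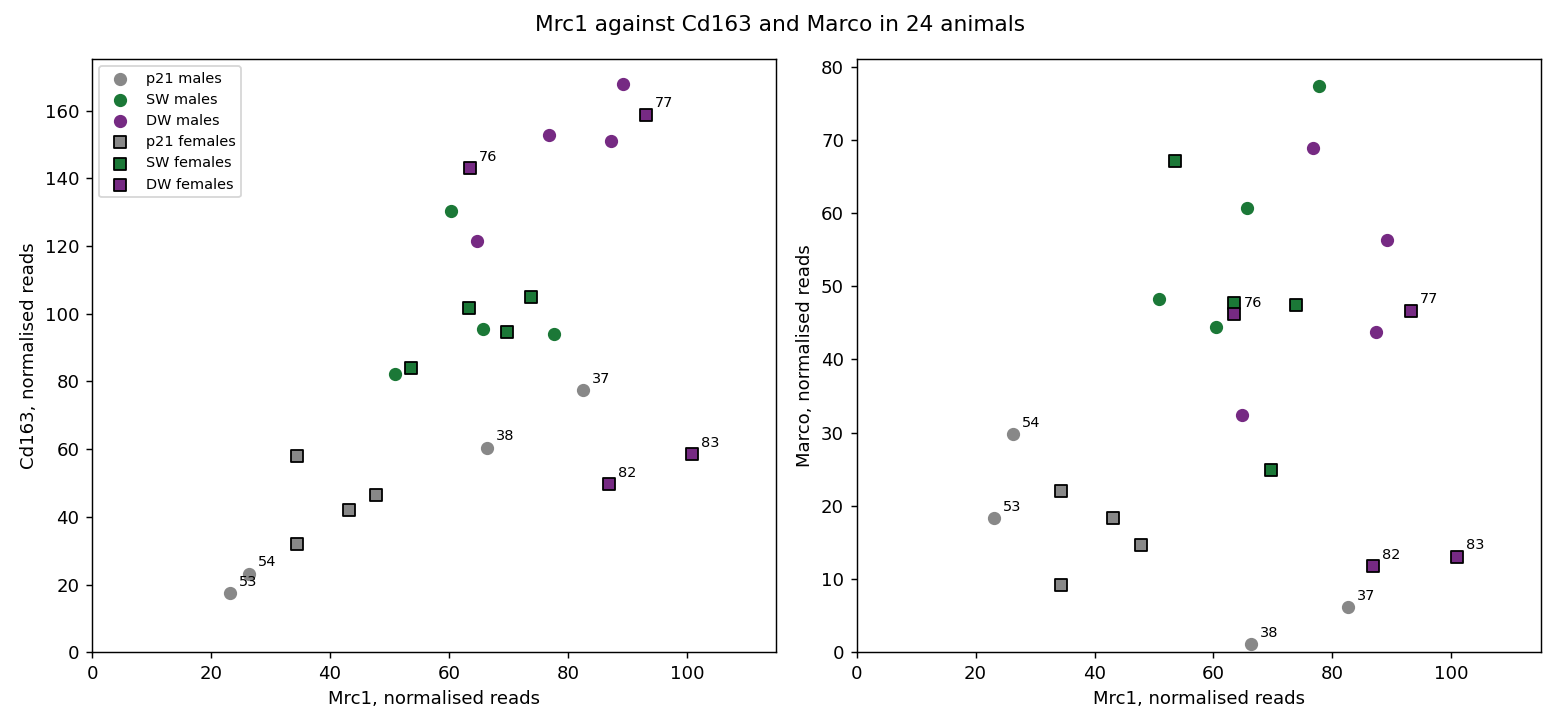
Normalised reads of Cd163 (left) and Marco (right) on the vertical axes against Mrc1 on the horizontal axes, 1 point per animal, with circles for males and squares for females and animal numbers for p21 males and DW females. DW females 82 and 83 sit at 86.9 and 101 for Mrc1 but at 49.8 and 58.5 for Cd163, and p21 males 37 and 38 are at 6.20 and 1.13 for Marco.

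The study's main contrast, delayed against standard weaning at p28, called 0 of 10 members by limma in males, where 0.256% of all genes were called, and 0 in females, where 1.27% were. Over both sexes together it called 0 members against 2.21% of all genes. At an unadjusted p under 0.05 the member count was also 0 in each, against 1110, 3019 and 2781 of all 16005 genes, and edgeR and DESeq2 called 0 members as well. The median log2 change of the members was 0.11 in males, -0.08 in females and 0.01 over both. In males the changes ran from -0.21 for Marco to 0.57 for Cd163, whose DW mean was 148 ± 19.4 and SW mean 100.5 ± 20.7 (SD, n = 4; 95% interval -0.21 to 1.34, limma adjusted p 0.876). DW males 79, 80 and 87 exceeded all SW males for Cd163, and DW male 86 did not exceed SW male 78. For Adgre1 every DW male exceeded every SW male, with a log2 change of 0.26 (95% interval -0.14 to 0.66, limma adjusted p 0.907). The other members overlapped between DW and SW males. In females the changes ran from -0.84 for Marco (95% interval -2.05 to 0.37, limma adjusted p 0.418) to 0.39 for Mrc1 (limma adjusted p 0.435). Without DW females 82 and 83 the Marco change was 0.07, that of Cd68 went from -0.40 to 0.52 and that of Cd163 from -0.09 to 0.65, none of them called. The intervals do not show that weaning left these genes equal: a change of 1 lies within that of Cd163 in males. The difference of the weaning effect between the sexes called 0 members by limma, edgeR and DESeq2, and 0 at an unadjusted p under 0.05 (0.0187% of all genes called), with the lowest change in Cd163 (-0.65, limma adjusted p 0.802).

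Sex differences were also not called in any member. Females and males differed in 0 of 10 members at p21 (0.356% of all genes called), in 0 after SW (3.54%) and in 0 after DW (2.46%), by limma and also by edgeR and DESeq2. At an unadjusted p under 0.05 the member counts were 0, 1 and 0. The 1 was Trem2 after SW, where every female (0.843 to 1.02) exceeded every male (0.397 to 0.832), with a log2 change of 0.29 (95% interval 0.05 to 0.53, limma adjusted p 0.324). Other differences after SW ran from -0.37 for Timd4 to 0.33 for Adgre1. After DW, females minus males ran from -0.97 for Marco (limma adjusted p 0.359) to 0.13 for Adgre1, and without DW females 82 and 83 the Marco difference was -0.06. At p21 the range was -0.38 for Itgax to 0.74 for Marco. The Mrc1 difference at p21 was -0.11 (limma adjusted p 0.937), became -1.08 and was called without p21 animals 53 to 56 (adjusted p 0.0354), and was 0.85 (adjusted p 0.219) without p21 animals 30 to 38. The change from p21 to p28 SW was not called as different between the sexes in any member (0 by limma, edgeR and DESeq2 and 0 at an unadjusted p under 0.05, against 1.03% of all genes). It was lowest for Marco at -1.08 (limma adjusted p 0.868) and highest for Adgre1 at 0.44 (limma adjusted p 0.792), and the latter was 1.04 and called without p21 animals 53 to 56 (adjusted p 0.0472).

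**Figure D4:**
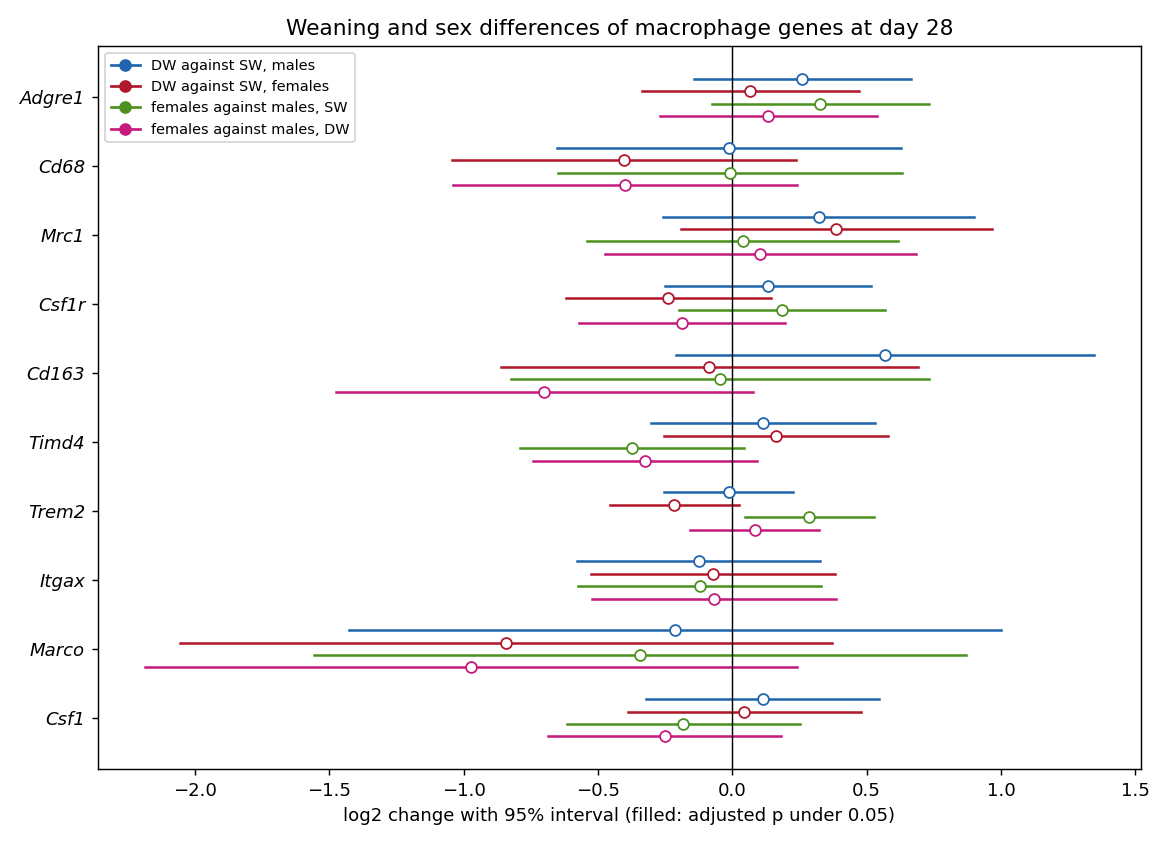
Log2 differences of each gene at p28 (horizontal axis, with 95% intervals) for DW against SW animals and for females against males. All points are open, meaning that none passed the limma threshold.

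Levels can be compared between genes per kilobase of merged exons. In SW males Cd68 was highest at 48.3 ± 8.92 normalised reads per kilobase, followed by Marco at 30.0 ± 7.69, Timd4 at 25.3 ± 7.06 and Cd163 at 18.4 ± 3.80 (SD, n = 4). Csf1r at 13.0 ± 3.00, Mrc1 at 9.99 ± 1.76 and Csf1 at 9.24 ± 1.13 followed, and Adgre1 at 5.56 ± 0.826, Itgax at 2.07 ± 0.486 were lowest of the 9 genes compared in this way, Trem2 being left out because its merged exons are long for its transcript. Marco and Timd4, and Mrc1 and Csf1, were closer to each other than either SD. In p21 males the order changed, with Timd4 (10.8 ± 1.53) and Csf1 (10.1 ± 2.88) next after Cd68 (20.2 ± 3.03) and Marco at 7.21 ± 6.67.

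Other macrophage genes, in lists from which the 10 members were left out, were also called at p28, more often among general and resident markers than among activation genes by count alone. Of all 16005 genes, 1105 were called higher in SW males, 1183 in SW females, 1418 in DW males and 952 in DW females. In the same order, 796, 677, 977 and 986 were called lower. The counts of every list are to be read beside these. Of 19 pan-macrophage genes, 9 rose in SW males, 14 in SW females, 11 in DW males and 11 in DW females by limma, and 0 fell, with median log2 changes of 0.60, 0.82, 0.53 and 0.85. The subunits of the complement starter C1q were among the largest rises: C1qc rose by 1.00 in SW males and 1.49 in SW females, and C1qb by 1.04 and 1.34. Lyz2, which encodes lysozyme of myeloid cells, rose by 0.96 in DW males and 1.53 in DW females. Fcgr1, an antibody receptor, rose by 1.03 in DW males and 1.16 in DW females.

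Of 18 tissue-resident genes, 10 rose in SW males and 14 in each of the other 3 groups, with 0 lower and medians of 0.60, 0.87, 0.81 and 0.96. Folr2, a folate receptor of resident macrophages, rose by 1.27 in SW males, 1.41 in SW females, 1.37 in DW males and 1.54 in DW females. Siglec1, a sialic acid receptor, rose by 1.47 in SW males and 1.75 in DW males. Cd209f, a lectin, rose by 1.34 in DW females, and Fcna, a ficolin, by 1.24 in DW males. Without p21 animals 53 to 56 the resident genes called higher were 3 in SW males (with 2 lower) and 4 in DW males (with 1 lower), and without p21 male 53, SW male 84 and p21 female 36 they were 4 in SW males. The pan-macrophage counts without p21 animals 53 to 56 were 5 in SW and 2 in DW males. Calls over all genes, in either direction, were then 996 in SW and 679 in DW males, against 1901 and 2395 with all animals. Without p21 male 53, SW male 84 and p21 female 36 they were 981 in SW males. In DW females, leaving out animals 82 and 83 gave 12 pan-macrophage and 13 resident genes higher.

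Of 17 lipid-associated genes, 5, 7, 4 and 4 rose in SW males, SW females, DW males and DW females, with medians of 0.21, 0.38, 0.37 and 0.22. Acp5, an acid phosphatase, rose by 1.05 in SW males and 0.98 in DW males, and Lgals3, galectin-3, by 0.97 in SW females and 0.70 in DW females. Gpnmb, a transmembrane glycoprotein, rose by 0.95 in SW females. Of 15 inflammatory genes, 3, 3, 2 and 4 rose, beside 1105, 1183, 1418 and 952 of all 16005 genes called higher. The smallest of these counts, 2 in DW males, is not far above the share of genes at large. Without p21 animals 53 to 56 the count was 1 in SW males and 1 in DW males, and without DW females 82 and 83 it was 2 in DW females. Cxcl9, an interferon-induced chemokine, rose by 1.17, 1.21 and 0.90 in SW males, SW females and DW males, and Saa3, an acute-phase protein, by 0.54, 0.92, 0.54 and 0.71 in the 4 comparisons. Il6 and Ccl3 stayed under 1 normalised read in every library.

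Of 12 alternative activation genes, 2, 3, 3 and 5 rose, among them Clec7a, the receptor dectin-1, by 0.72, 1.25, 0.66 and 1.09. Retnla, a secreted protein induced by interleukin-4, rose by 0.94 in SW males, 1.31 in SW females and 1.62 in DW females. Arg1 and Il10 were under 1 normalised read in every library, although Il10 was called in DW males (0.27). The counts of this list were 0 in SW and 0 in DW males without p21 animals 53 to 56, and 0 in SW males without p21 male 53, SW male 84 and p21 female 36. Of 12 monocyte genes, 1, 2, 1 and 3 rose, beside 1105, 1183, 1418 and 952 of all 16005 genes. The counts of 1 are thus near the share of genes at large. Ccr2, the receptor that draws monocytes from blood, was called in all 4 comparisons at 0.75, 0.93, 0.77 and 1.30. In both male comparisons it lost its call without p21 animals 53 to 56 and without p21 male 53, SW male 84 and p21 female 36, and in SW males also in the model of the compared groups alone, where 0 monocyte genes were called higher. Of 8 genes of colony stimulating factors and related signals, 1, 2, 0 and 1 rose, small counts to be read beside the same share. Csf3r, a receptor of neutrophils and some macrophages, rose by 0.73 in SW males and 0.88 in SW females, and Il33, an alarmin of stromal cells, by 1.02 in SW females and 0.78 in DW females.

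Of 19 transcription factors of macrophages, 0 were called in SW males, 3 rose and 1 fell in SW females, 1 rose and 1 fell in DW males, and 2 rose and 1 fell in DW females. In males these counts did not exceed the 11.9% (SW) and 15.0% (DW) of all genes called in either direction. In females that share was 11.6% after SW and 12.1% after DW. Tfec, a factor of the family that regulates lysosomal genes, rose by 0.59 in DW males and 0.58 in DW females. Pparg, also the main factor of adipocytes, fell by 0.76 in SW females. Calls by weaning and sex in these lists were few. In females DW called 1 pan-macrophage gene lower, also in the transcription factor list (1.27% of all genes called). After SW, 1 pan-macrophage, 1 lipid-associated and 2 transcription factor genes were higher in females than in males (3.54% of all genes). After DW, 1 lipid-associated and 1 monocyte gene were (2.46%).

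**Figure D5:**
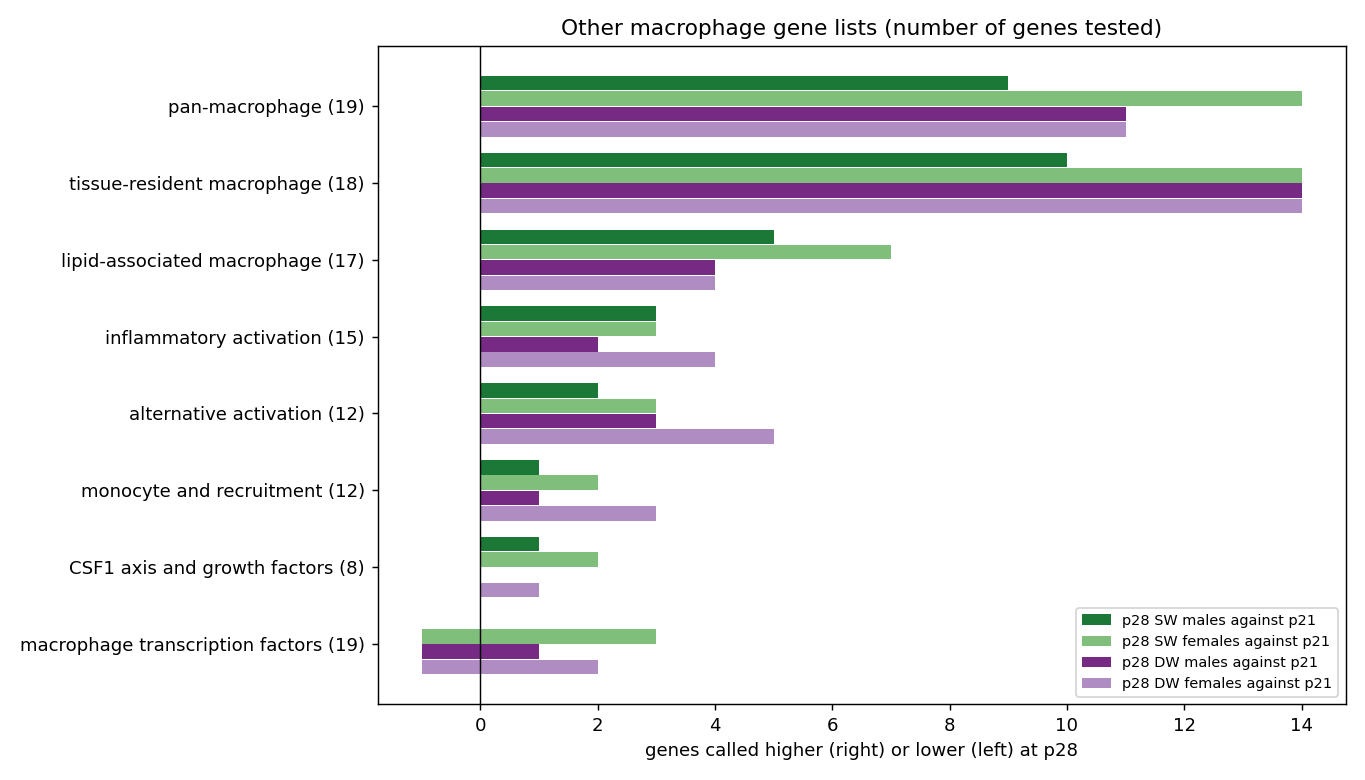
Number of genes called higher (bars to the right) or lower (bars to the left) at p28 than at p21 for 8 macrophage gene lists, with the number of genes tested in brackets. The pan-macrophage and tissue-resident lists reach 9 to 14 called genes, and the transcription factor list has genes called in both directions.

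Markers of other cells moved between p21 and p28 too. Their counts stand beside 11.6% to 15.0% of all genes called in either direction, and a count of 1 in 6 or 8 genes is near that share. Of the 5 erythroid genes, 4, 2, 4 and 5 fell in SW males, SW females, DW males and DW females, and their summed level was 433 to 1675 in p21 males and 144 to 455 in SW males. Of 6 endothelial genes, 2, 1, 4 and 1 rose, with sums of 1052 to 1234 in p21 males, 1209 to 1803 in SW males and 1703 to 1857 in DW males. Endothelial sums in females overlapped, at 976 to 1593 at p21, 1339 to 1853 after SW and 924 to 1533 after DW. Of 6 mammary epithelium genes, 5 rose in SW females and 1 in DW females, with sums of 16.5 to 65.1 in p21 females, 213 to 290.0 in SW females and 61.6 to 167 in DW females. All 6 skeletal muscle genes rose in males, from sums of 1.58 to 456 at p21 to 366 to 3763 after SW and 272 to 5492 after DW, and 0 rose in females. Of 6 T cell genes, 2, 0, 3 and 1 fell, with sums of 331 to 581 in p21 males, 248 to 360 in SW males and 221 to 299.5 in DW males. T cell sums in females overlapped, at 293 to 385 at p21, 203 to 325 after SW and 237 to 324 after DW. Of 6 B cell genes 0 were called, with sums of 298 to 884 over all libraries. Of 6 lymph node stroma genes, Glycam1 fell in SW males (-1.12), where the sums were 1051 to 2483 at p21 and 591 to 1157 after SW. Of 8 adipocyte genes, Adipoq and Cidec rose in males after SW and DW and Lep fell in SW males, with sums of 14912 to 17653 in p21 males and 18624 to 25548 in SW males, without overlap. Adipocyte sums in females overlapped, at 18101 to 23806 at p21 and 17683 to 23799 after SW. Of 6 progenitor genes, 1, 1, 2 and 2 rose, with sums of 525 to 1246 in p21 males and 764 to 1148 in SW males. Of 8 dendritic cell genes, a cell type that also expresses Itgax, 1, 3, 1 and 3 rose and 1, 1, 1 and 0 fell, Ccr7 being the 1 that fell by 0.75, 0.85 and 0.82. No gene of these lists was at 0 in every library. The part of any of them in the macrophage results was not tested.

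Across the 24 animals, the genes whose log2 values were most like a member's were, as a description, other genes named for macrophages in several cases. The closest to Adgre1 was Folr2 (Pearson r 0.96), to Cd68 it was Lgals3bp (0.95) followed by C1qa (0.95), to Csf1r it was C1qb (0.95) and to Timd4 it was Cd33 (0.96). Mrc1 was closest to F13a1, coagulation factor XIII of macrophages (0.98), then to Sema3c (0.92) and Sema3d (0.92), which are secreted guidance proteins. Marco was closest to Stab2 (0.90) and Cd209b (0.85), a scavenger receptor and a lectin, and Cd209b was also near Timd4 (0.94). The tissue in which these genes were expressed, fat or lymph node, was not tested. Csf1 was closest to the collagen genes Col6a6 (0.90) and Col1a1 (0.88). These correlations run over animals of all 6 groups, so differences between groups, such as p21 and p28, enter them. Library depth also differed between the animals. Without DW females 82 and 83, F13a1 was again closest to Mrc1 (0.98, 22 animals), and Cd209b to Marco (0.92).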

How the data were processed

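Polyadenylated RNA of 24 mice was sequenced on a NovaSeqXPlus after KAPA mRNA HyperPrep library preparation, per the labels' protocols. The tools were fastp, HISAT2, featureCounts and DESeq2 1.38.3, and the build mm10, per the submitters' processing notes. The values the authors deposited are a signal: each library's reads per gene, scaled by 1 factor per library. All values (100%, within 0.001) were whole multiples of the value of 1 read, from which whole reads were recovered. The deposited scaling lay within 0.965 to 1.03 of TMM scaling. The deposited comparison columns were not used. Of the entries, 90 repeats were dropped, leaving 16118 genes.

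Groups follow the description, age, sex and group labels, although the p21 libraries carry a p28 title. The labels do not say whether animals came from separate litters, so p-values measure the spread between these animals. Chi-square tests on reads in 36 pairs of replicates gave at least 77.11 per degree of freedom, and no libraries were merged. filterByExpr (minimum count 10) kept 16005 genes, among them all 10 members. Because the file holds scaled values, limma 3.58.1 (R 4.3.3) was fitted to log2(value + 1) in 24 animals and 6 groups, with 18 residual degrees of freedom and a variance trend, after a test on simulated data. Calls needed an adjusted p (Benjamini-Hochberg) under 0.05. Alternatives were edgeR 4.0.16 and DESeq2 1.42.0 on recovered reads, TMM rescaling, a pseudocount of 0.1, no filter, only the compared groups, p21 male 53, SW male 84 and p21 female 36 left out together, and each animal left out. Of the libraries left out together, p21 female 36 lay within the range of the others, with 100028669 reads, 16021 detected genes and 21.2% mitochondrial reads. Leaving out DW females 82 and 83, p21 animals 30 to 38 or p21 animals 53 to 56 was added after seeing the data.

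The members and lists were chosen with earlier results of these data known. The genes named are the members, up to 3 of the largest called rises and falls per list and comparison, and the 3 genes of highest Pearson r with a member (mean log2 value of at least 1). Of these, those that illustrate a result are given, and 1 gene of the lists is not reported here. Exon lengths were merged from GENCODE, and promoters came from RefSeq on GRCm38.p6. The limit for 0 reads (3 reads) covers counting error only, because no molecular identifiers are recorded.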

Additional observations from a re-analysis of the deposited data

Results flagged for a closer look

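In 60 tests of a gene in a group of 4 animals, an animal was singled out where its gap to the nearest other, divided by the group's range, was above Dixon's 95% critical value for 4 values. Chance gives about 1 in 20, or 3, and 3 were found. Adgre1 was 23.09 in DW male 79, against 20.97 to 21.22 in the other DW males. Csf1 was 68.56 in the same animal, against 47.36 to 49.54. Cd68 was 73.1 in SW female 81, against 55.09 to 56.46 in the other SW females.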

How the results depend on the processing

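No paired analysis was possible because no animal number is shared between groups. TMM rescaling, a pseudocount of 0.1 and no filter left 61 of 61 single-gene results with the same direction and call. No member count moved by over 1.5 times when any 1 animal was left out. Animal 53, the library with the fewest reads, gives the least precise low values. Causes of the shifts below were not tested.

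Fitting only the compared groups gave 3 members called in place of 7 in SW males, 9 in place of 5 in SW females (8 higher, and Csf1 lower) and 5 in place of 8 in DW males. Over all genes it called 922 in place of 1901, 2445 in place of 1860 and 2119 in place of 2395, in the same order. Without p21 male 53, SW male 84 and p21 female 36 the SW male count was 3 (981 of all genes), the DW male Itgax change 0.14 and the DW male Csf1 change -0.0838.

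Without p21 animals 53 to 56, 3 members were called in SW males, 4 in DW males, 1 for sex at p21 (Mrc1) and 1 for the sex difference of the SW age change (Adgre1). Over all genes the calls were then 996, 679, 66 and 105, in place of 1901, 2395, 57 and 165. The Mrc1 change was -0.23 in SW males, and in DW males Itgax was 0.16 and Csf1 -0.33. Without p21 animals 30 to 38, 3 members were called in SW females, where calls over all genes went from 1860 to 1087. Itgax was -0.10 and Csf1 0.27 in SW males, the sex difference at p21 was -0.49 for Marco and 0.85 for Mrc1, and the sex difference of the SW age change was 0.15 for Marco and -0.16 for Adgre1.

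Without DW females 82 and 83, Csf1 changed by 0.11 from p21 in DW females. The weaning difference in females was 0.65 for Cd163, 0.52 for Cd68 and 0.0696 for Marco, the sex difference after DW was 0.0328 for Cd163, and the sex difference of the weaning effect was 0.0780 for Cd163 and 0.28 for Marco. edgeR and DESeq2 gave -0.0181 and -0.00173 for Csf1 from p21 in DW males and 0.12 and 0.10 for Cd163 by weaning in females.

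Leaving out 1 animal at a time, the change from p21 ran from -0.0448 to 0.26 for Itgax and -0.21 to 0.0430 for Csf1 in SW males, and from -0.17 to 0.14 for Itgax and -0.10 to 0.16 for Csf1 in DW males. The weaning difference of Cd163 in females ran from -0.35 to 0.20, and the sex difference of Mrc1 at p21 from -0.40 to 0.20.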
